A study of Mus musculus with 48 samples.

Results

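The genes described here are 10 liver genes that mark hepatic stellate cells or the scar matrix they can lay down: Col1a1, Col1a2, Col3a1, Acta2, Des, Lrat, Pdgfrb, Timp1, Lox and Spp1. They were named as known markers, with earlier results of these data known, and matched by symbol in a table of 29331 genes; all 10 were found and passed the low-count filter. RNA of whole livers was sequenced from male wild-type mice in 16 groups of 3 libraries, 48 in all. Mice received lipopolysaccharide (LPS), a bacterial outer-membrane component that provokes inflammation, continuously for 7 days, or served as a negative control (NC). LPS livers came from day 7 at 6 Zeitgeber times (ZT, hours within the light cycle: 1, 5, 9, 13, 17 and 21), and from days 3, 5, 9 and 11 at ZT21 alone. If days are counted from the first dose, which is assumed and not stated, days 3 and 5 fall within the LPS course. Days 9 and 11 then fall after LPS ended, and these livers are called LPS by their group name only. NC livers were collected on day 7 only, at the same 6 times. All groups share the genotype; neither the LPS dose and route nor what NC mice received is stated in the labels. The libraries are called biological replicates, and whether each came from a separate animal is not stated, so the spread behind each p-value may be partly technical.

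Hepatic stellate cells lie between hepatocytes and the sinusoidal endothelium and store vitamin A as retinyl esters, which the enzyme made by Lrat forms. When activated by injury they lose their lipid, respond to PDGF through the receptor that Pdgfrb encodes, take on alpha smooth muscle actin (Acta2) and secrete fibrillar collagens (Col1a1, Col1a2, Col3a1). Lox cross-links collagen and elastin, Timp1 inhibits matrix metalloproteinases, Des is an intermediate filament of muscle and rodent stellate cells, and Spp1 (osteopontin) is a secreted matrix protein also made by bile duct cells and macrophages. Acta2 is likewise made by vascular smooth muscle, and collagens by portal fibroblasts, so none of these transcripts belongs to stellate cells alone.

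Library totals were 28.2 to 45.3 M counts, with a median of 32.9 M. Other defining stellate markers were present in every library: Reln, an extracellular glycoprotein, ranged from 17.4 to 48.9 CPM (counts scaled to library size), and the transcription factors Hand2 and Lhx2 from 3.23 to 9.73 CPM and from 1.85 to 5.85 CPM. Of the day 7 libraries, 4 LPS libraries stood apart on the first principal component of all genes, with scores of 62.6 to 81.8 against at most 27.6 in the others: ZT1 replicate 2, ZT13 replicate 2 and ZT21 replicates 1 and 3. Day 7 results are given with and without them where the call changes. Levels are CPM scaled by the trimmed mean of M-values (TMM), changes are log2 LPS minus NC ± SE, and a gene is said to have risen or fallen where edgeR's quasi-likelihood test gave a Benjamini-Hochberg adjusted p under 0.05 over all genes tested.

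Set per kilobase of exon in day 7 livers, Spp1 had the highest level, 26.4 ± 14.1 CPM per kb in LPS and 17.4 ± 6.99 CPM per kb in NC (SD, n = 18 each). Col3a1 followed with 8.88 ± 6.28 CPM per kb in LPS and 5.25 ± 2.16 CPM per kb in NC, then Col1a1 with 5.07 ± 4.19 CPM per kb in LPS and 2.83 ± 1.4 CPM per kb in NC. Col1a2, Lrat, Acta2, Pdgfrb and Des lay between 1.23 and 3.01 CPM per kb in LPS and between 1.08 and 2.43 CPM per kb in NC. Lowest were Timp1, at 0.387 ± 0.435 CPM per kb in LPS and 0.185 ± 0.163 CPM per kb in NC, and Lox, at 0.180 ± 0.157 CPM per kb in LPS and 0.121 ± 0.0872 CPM per kb in NC. Across the 16 group means of each gene, the ranges of neighbouring groups overlapped in all 15 steps of the order for 9 genes and in all but 1 for Col1a1, so the orders are mostly within the spread of 3 libraries.

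**Figure D1:**
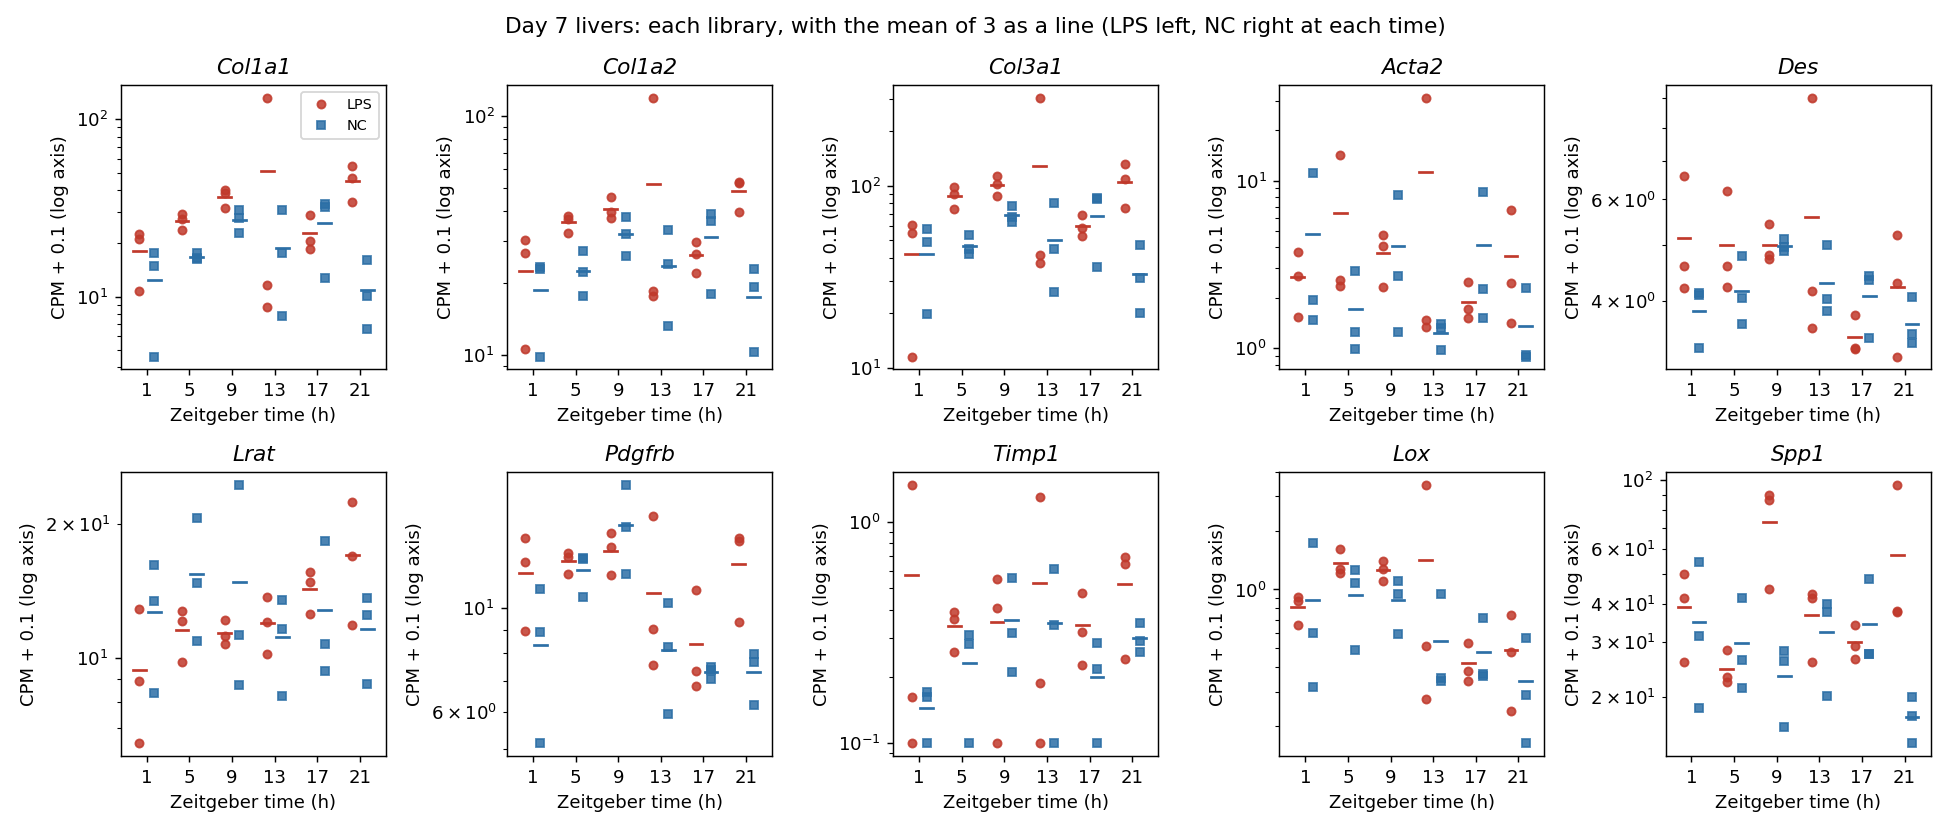
Each panel plots 1 gene in day 7 livers, with Zeitgeber time in hours on the x axis and CPM plus a pseudocount of 0.1 on a log y axis; points are libraries, lines are means of 3, LPS red and left, NC blue and right. The single LPS library at ZT13 far above its group, replicate 2, reaches 132 CPM for Col1a1 and 31.2 CPM for Acta2.

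The fibrillar collagens make up the bulk of scar matrix. Col1a1 (chr11:94936224-94953042, plus strand, GRCm38) and Col1a2 (chr6:4504814-4541544, plus strand) encode the 2 chains of type I collagen, and Col3a1 (chr1:45311538-45349706, plus strand) the chain of type III collagen. Their promoters are shown because these transcripts moved together: over the 48 libraries log2 CPM of Col1a1 and Col1a2 had a Pearson correlation of 0.96, Col1a2 and Col3a1 of 0.96, and Col1a1 and Col3a1 of 0.92, a description of libraries that share groups and depth. Below are the 250 bases before the RefSeq start of Col1a2 (chr6:4505368-4505617, plus strand, GRCm38.p6) and of Col3a1 (chr1:45311288-45311537, plus strand), with motif matches in capitals.
Col1a2: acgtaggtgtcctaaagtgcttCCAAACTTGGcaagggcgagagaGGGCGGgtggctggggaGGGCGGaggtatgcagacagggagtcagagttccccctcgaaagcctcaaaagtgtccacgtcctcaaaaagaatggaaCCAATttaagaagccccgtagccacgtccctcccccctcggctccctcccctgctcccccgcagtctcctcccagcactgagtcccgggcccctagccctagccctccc
Col3a1: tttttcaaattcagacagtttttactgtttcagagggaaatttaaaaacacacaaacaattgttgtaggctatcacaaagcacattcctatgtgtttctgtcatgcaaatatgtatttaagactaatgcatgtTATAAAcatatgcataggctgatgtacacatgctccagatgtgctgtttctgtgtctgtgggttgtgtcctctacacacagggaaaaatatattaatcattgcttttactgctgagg
The Col1a2 capitals are, from the left, a CArG box with 1 mismatch, a pair of GC boxes (GGGCGG) and a CCAAT box (CCAAT); the Col3a1 capitals are a TATA box (TATAAA). Both strands were searched, with no overlap between matches shown. Of 27025 mouse promoters of this length, 32.9% held the GC box, 34.5% the CCAAT box, 13% the TATA box and 7.38% the CArG box with 1 mismatch, so none of these letters is particular to collagens. The AP-1 motif TGANTCA, found in 6.87% of promoters, had no match in the windows of the 7 genes searched. Sequences came from RefSeq, whose table held 7 of the 10 genes. Gene coordinates are those of GENCODE, where Col1a2 starts at 4504814, so the window shown lies inside that gene.

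Averaged over the 6 times of day 7, Col1a1 was 33.3 ± 27.5 CPM in LPS livers, with a range of 8.69 to 132 and a median of 28.1, and 18.6 ± 9.05 CPM in NC livers, with a range of 4.5 to 33.4 and a median of 17 (SD, n = 18 each). The ranges overlap broadly, and 14 of 18 LPS libraries lay above the NC mean of their own ZT, in log2 CPM. Its change of 0.83 ± 0.27 did not pass the test (adjusted p = 0.0546, edgeR), nor did those of Col1a2 (0.62 ± 0.21, adjusted p = 0.0675) and Col3a1 (0.72 ± 0.25, adjusted p = 0.0673). DESeq2 called all 3 collagens, with Pdgfrb and Spp1. Shares over all genes are those of edgeR, here and below, so counts by DESeq2 have no share beside them. Without the 4 libraries that stood apart, an alternative chosen after seeing the data, Col1a1 was 0.42 ± 0.20 with adjusted p = 0.275. In whole liver, more cells of a type and more RNA per cell cannot be told apart, for this and all other results.

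Of the 10 genes, 1 rose on this average, where 9.34% of 16544 genes changed and 5.53% were higher. That gene was Spp1 (chr5:104435118-104441050, plus strand), at 43.5 ± 23.3 CPM in LPS livers, ranging from 22.3 to 96.8 with a median of 37.7, and 28.6 ± 11.5 CPM in NC livers, ranging from 14.1 to 54.6 with a median of 26.8 (SD, n = 18 each). LPS and NC libraries overlapped, and 11 of 18 LPS libraries exceeded the NC mean of their own ZT, in log2 CPM. The change was 0.55 ± 0.16 (adjusted p = 0.0349), and 0.42 ± 0.17 (adjusted p = 0.203) without the 4 libraries. Leaving out 1 library at a time, the call was lost in 15 of 36 fits, with adjusted p up to 0.0669: LPS ZT1 replicate 3, ZT5 replicate 3, ZT9 replicates 2 and 3, ZT13 replicate 2, ZT17 replicate 3 and ZT21 replicate 3, and NC ZT1 replicate 1, ZT5 replicates 2 and 3, ZT9 replicate 2, ZT13 replicate 1, ZT17 replicates 2 and 3 and ZT21 replicate 2. In the annotation 18.8% of its exon bases, 309 in all, overlap Gm42793 on the same strand, which had 1 to 8 counts per library. How shared reads were assigned is not given, so those counts cannot show how many Spp1 reads are shared.

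The remaining members did not pass on this average. Pdgfrb was 0.30 ± 0.11 (adjusted p = 0.0710), Timp1 1.22 ± 0.56 (adjusted p = 0.162), Acta2 0.76 ± 0.43 (adjusted p = 0.262), Des 0.18 ± 0.10 (adjusted p = 0.254), Lox 0.51 ± 0.32 (adjusted p = 0.314) and Lrat −0.07 ± 0.14 (adjusted p = 0.808). Of the 10 changes, 9 were positive, with a median of 0.58 against 0.01 over all genes. Without the 4 libraries that median was 0.12. Lrat, the vitamin A storage enzyme (chr3:82892579-82903973, minus strand), averaged 12.5 ± 3.45 CPM in LPS livers and 13 ± 4.49 CPM in NC livers (SD, n = 18 each).

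Among wider lists on the same average, 10 of 28 other collagens and matrix proteins rose and none fell, led by Col8a1 (0.85 ± 0.22, adjusted p = 0.0158), Col4a1 (0.66 ± 0.15, adjusted p = 0.00944) and Col4a2 (0.63 ± 0.11, adjusted p = 0.00108), the last pair being chains of basement membrane collagen. Without the 4 libraries, where 2.99% of all genes were called, 5 of 28 rose. Of 17 genes of collagen processing and cross-linking 2 rose and 1 fell: Pcolce, which enhances procollagen cleavage (0.48 ± 0.12, adjusted p = 0.0181), Adamts2, a procollagen protease (0.42 ± 0.13, adjusted p = 0.0382), and P4ha2, a prolyl hydroxylase subunit, which fell by 0.29 (adjusted p = 0.0397). Of 27 other stellate markers 2 rose, including Sod3 (0.48 ± 0.07, adjusted p = 0.000532). Of these, 0 of the 17 processing genes and 1 of the 27 stellate markers were called without the 4 libraries. None of 26 TGF-beta and PDGF signalling genes passed. Beside these, 16 of 20 proliferation genes and 7 of 10 neutrophil genes rose, against 0 of 20 and 6 of 9 without the 4 libraries; summed neutrophil markers ran from 3.18 to 153 CPM in LPS and from 1.87 to 8.92 CPM in NC, and summed portal fibroblast markers from 19.5 to 131 CPM in LPS and from 15.8 to 49.0 CPM in NC. Their part in the result was not tested.

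**Figure D2:**
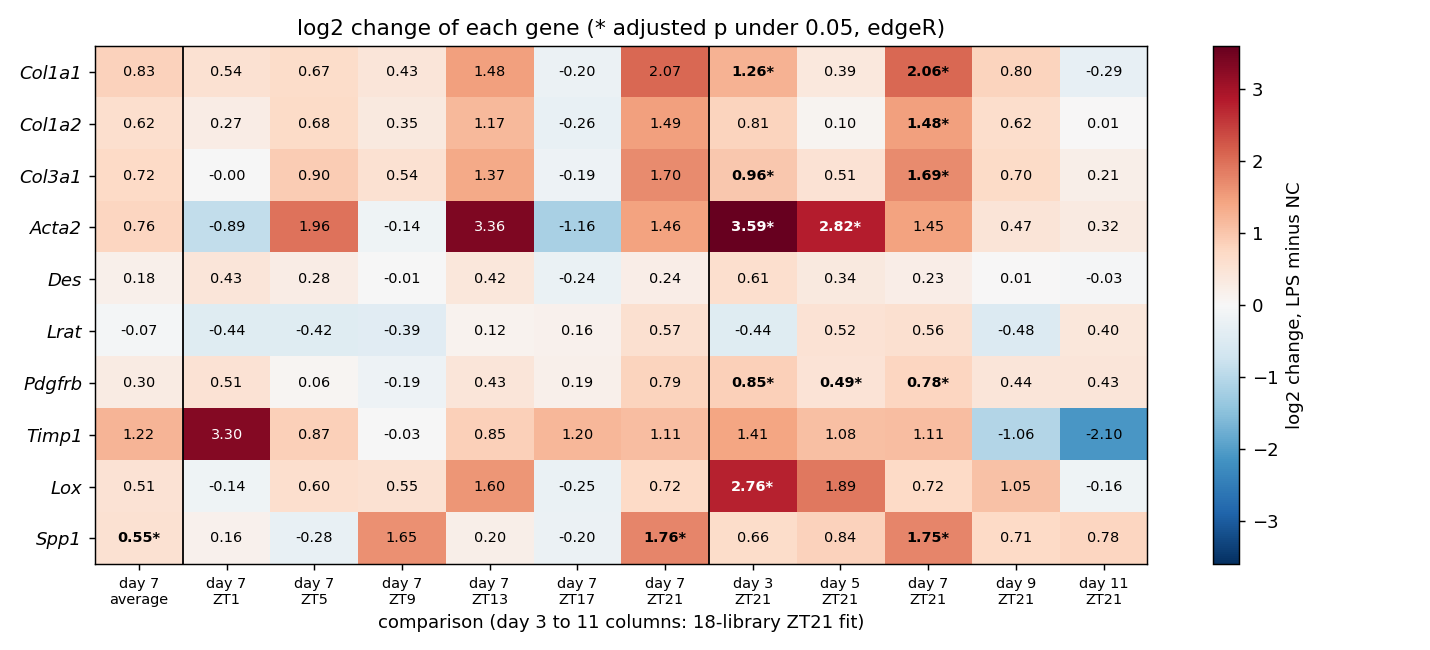
Cells give the log2 change, LPS minus NC, of each gene (rows) in each comparison (columns), coloured from blue (lower in LPS) to red (higher in LPS), with an asterisk for adjusted p under 0.05. At ZT21 Acta2 and Lox have their largest values on day 3, at 3.59 and 2.76, and Col1a1 on day 7, at 2.06.

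At single times of day 7 few members passed. Spp1 rose at ZT21, with 37.7, 37.6 and 96.8 CPM in LPS libraries against 17.3, 14.1 and 19.9 CPM in NC libraries. The groups did not overlap, and LPS replicate 3 was far above the other two. Its change was 1.76 ± 0.41 (adjusted p = 0.0105), where 8.9% of genes changed and 5.52% were higher. The call was lost without LPS replicate 3 (1.14, adjusted p = 0.130) and without NC replicate 2 (1.64, adjusted p = 0.0706). It was 1.14 ± 0.52 (adjusted p = 0.772) without the 4 libraries, which leaves 1 LPS library at this time. At ZT9 Spp1 was 44.6, 86.3 and 89.4 CPM in LPS against 26.1, 15.9 and 28.0 CPM in NC; these did not overlap either, and the change of 1.65 ± 0.41 missed the threshold (adjusted p = 0.0646), where 0.453% of genes changed. It was called by DESeq2, and without the 4 libraries, where it was 1.66 (adjusted p = 0.0317). A test of whether the LPS effect on Spp1 varied with time gave adjusted p = 0.0710, where 1.7% of genes passed.

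At the other times edgeR called 0 of the 10 genes: at ZT1, where 0.357% of genes changed, 1 gene had an unadjusted p under 0.05 and DESeq2 called 0. Likewise 0.0121% of genes changed at ZT5 and 0% at ZT17, with 0 genes at an unadjusted p under 0.05 and 0 by DESeq2 at both. At ZT13, where 3.18% changed, 5 members had an unadjusted p under 0.05 and DESeq2 called 1, Acta2. That value came from 1 library: Acta2 was 1.24, 31.2 and 1.37 CPM in LPS against 0.871, 1.22 and 1.3 CPM in NC, and without LPS replicate 2 its adjusted p was 0.959. In the same library summed portal fibroblast markers reached 131 CPM, against 22.1 and 26.3 CPM in the other LPS libraries, and summed contractile genes 200 CPM, against 102 and 99.0 CPM. Col3a1 there was 303 CPM, against 37.5 and 41.6 CPM, and Lox 3.34 CPM, against 0.412 and 0.174 CPM.

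Acta2 (chr19:34241090-34255590, minus strand) is shown with the 250 bases before its RefSeq start (chr19:34255374-34255623, minus strand, GRCm38.p6), because it had the largest change on day 3 and because CArG boxes, bound by serum response factor, are a known feature of smooth muscle genes.
Acta2: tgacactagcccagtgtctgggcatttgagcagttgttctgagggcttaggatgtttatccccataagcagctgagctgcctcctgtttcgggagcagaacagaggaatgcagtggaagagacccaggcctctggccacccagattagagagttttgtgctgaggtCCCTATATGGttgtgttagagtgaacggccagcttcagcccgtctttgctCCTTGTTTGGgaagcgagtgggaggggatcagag
Capitals mark the 2 CArG boxes with 1 mismatch, from 84 to 75 and from 34 to 25 bases before the RefSeq start. At least 1 is held by 7.38% of promoters. In GENCODE the gene starts at 34255590, so most of the window lies inside it and these distances hold for RefSeq only. The exact CArG box, held by 1.4% of promoters, had no match here, and the looser form was added after that was seen. Reads of Acta2 may be shared with the close paralogs Actg2 and Acta1, so its counts are uncertain to that extent. Acta1, the skeletal muscle actin, was at 0 in 35 of 48 libraries.

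At ZT21 on day 3, Acta2 was 6.15, 7.97 and 31.7 CPM in LPS livers, against 2.2, 0.809 and 0.793 CPM in NC livers of day 7. All LPS libraries exceeded all NC libraries, and replicate 3 stood well above the other LPS libraries. Acta2 rose by 3.59 ± 0.81 (adjusted p = 0.00735), where 20.5% of 16101 genes changed and 10.3% were higher. Lox, the collagen and elastin cross-linker (chr18:52516067-52529867, minus strand), was 0.860, 1.28 and 2.81 CPM in LPS against 0.189, 0.467 and 0.0634 CPM in NC, and rose by 2.76 ± 0.65 (adjusted p = 0.00700). Pdgfrb, the PDGF receptor beta (chr18:61045150-61085061, plus strand), was 14.5, 12.4 and 12.1 CPM in LPS against 7.58, 7.88 and 6.12 CPM in NC, and rose by 0.85 ± 0.15 (adjusted p = 0.00100). Neither gene's groups overlapped. Col1a1 (1.26 ± 0.35, adjusted p = 0.0219) and Col3a1 (0.96 ± 0.28, adjusted p = 0.0240) also rose, so 5 of 10 passed. DESeq2 called 7, with Col1a2 and Des added. Col1a1 was 25.1, 13.6 and 39.3 CPM in LPS, overlapping NC at 16.0, 9.99 and 6.5 CPM. Both collagen calls were lost without LPS day 3 replicate 3, NC replicate 2 or NC replicate 3, with adjusted p of 0.0766 to 0.106.

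The day comparisons at ZT21 share their 3 NC libraries, and clock gene levels of some LPS livers lay nearer to NC of another time. The nearest NC group is called the nearest clock time, as a description only. Days 3, 5, 9 and 11 were sampled at ZT21 alone. A shifted clock thus cannot be told from clock gene levels changed otherwise. LPS livers of day 7 at ZT1 to ZT17 lay nearest to their own time, at distances of 0.47 to 0.82. Over 17 clock genes, day 3 LPS livers lay nearest to NC livers of ZT5 (root mean square log2 distance 0.87) and 2.49 from NC at ZT21; day 5 livers lay nearest to NC at ZT1 (0.67, against 2.00 at ZT21), day 7 livers about equally near to ZT17 (1.071) and ZT21 (1.082), and days 9 and 11 nearest to ZT21. Nr1d1, a clock repressor, was 57.2 ± 13.8 CPM on day 3, 9.15 ± 3.05 CPM in NC at ZT5 and 3.78 ± 1.49 CPM in NC at ZT21 (SD, n = 3 each). It was thus far above both NC groups. Means of the clock gene Arntl were 26.1, 26.4 and 20.3 CPM in the same groups, and those of Dbp 2.91, 1.67 and 5.51 CPM. Set against NC of the nearest clock time, an alternative chosen after seeing the data, 0 of 10 genes passed on day 3, where edgeR called 7.31% of genes. Acta2 was then 3.23 ± 1.04 (adjusted p = 0.0511), Lox 0.97 ± 0.69 (adjusted p = 0.428), Pdgfrb 0.12 ± 0.23 (adjusted p = 0.811) and Col1a1 0.64 ± 0.60 (adjusted p = 0.586). In that fit of all 48 libraries, the same day 3 livers against NC at ZT21 gave 3 calls, where 19.3% of genes were called. These were Acta2 (adjusted p = 0.0158), Pdgfrb (adjusted p = 0.00856) and Lox (adjusted p = 0.00943). The Acta2 value was thus close for either NC group, and the Pdgfrb and Lox values were smaller against NC at ZT5. The part of clock gene levels in these values was not tested.

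**Figure D3:**
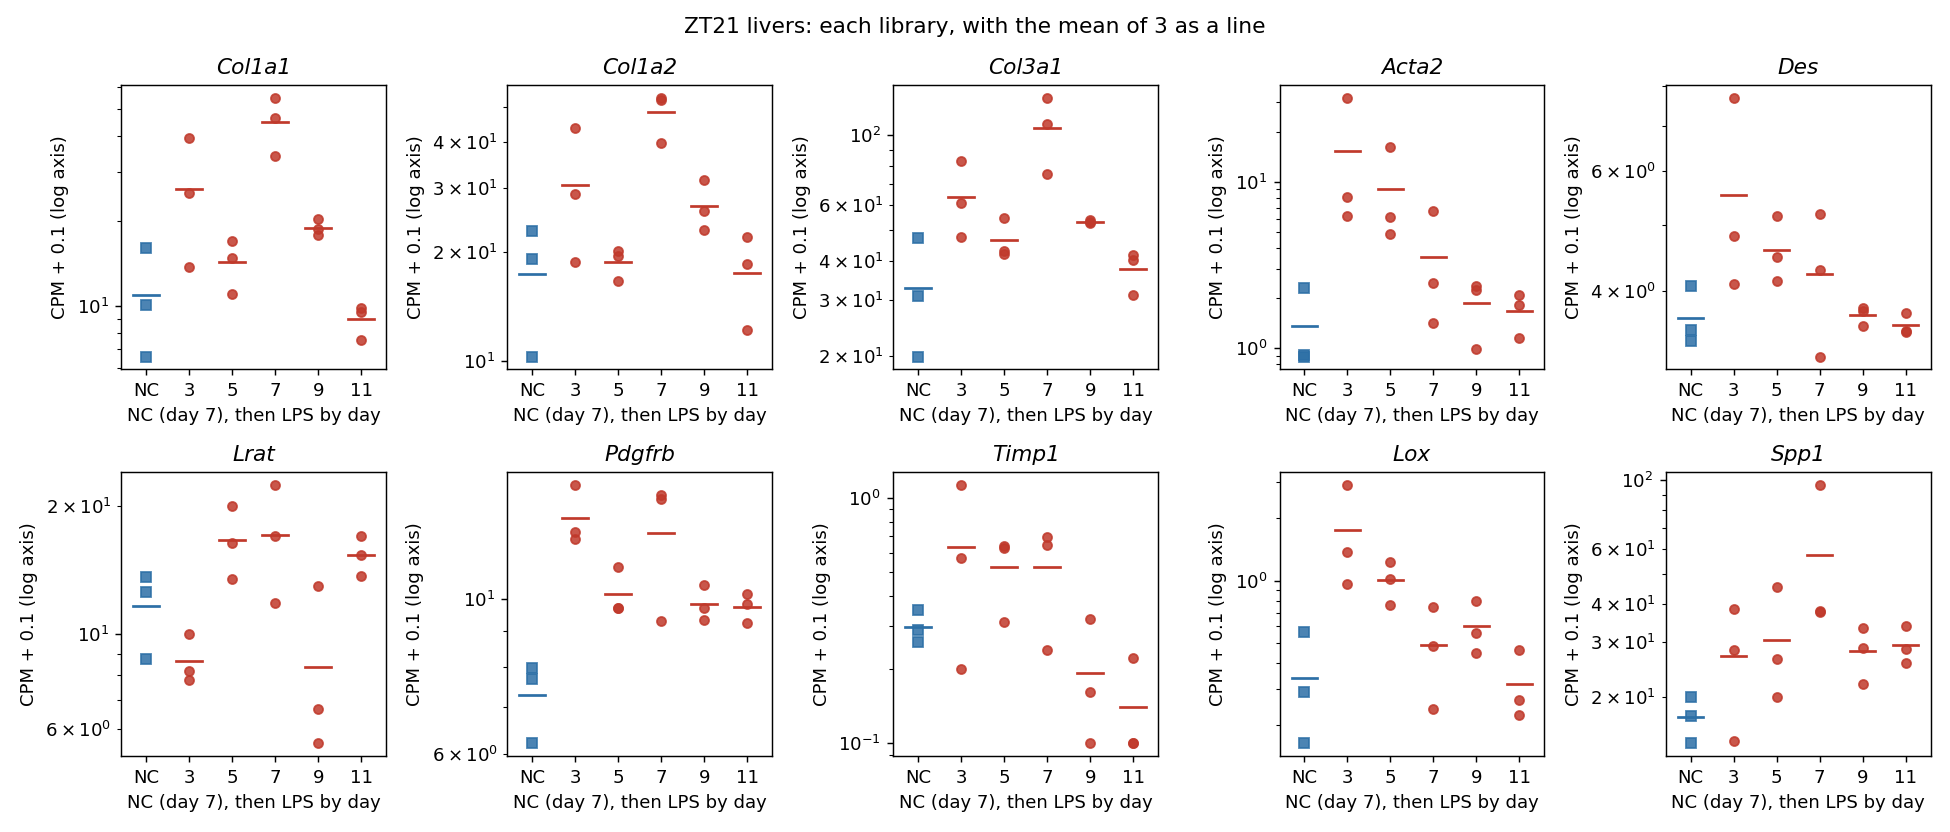
Each panel plots 1 gene at ZT21, with NC of day 7 (blue) first and LPS livers of days 3, 5, 7, 9 and 11 (red) after it on the x axis, and CPM plus a pseudocount of 0.1 on a log y axis; points are libraries and lines means of 3. Acta2 reaches 31.7 CPM on day 3 and at most 2.26 CPM on day 9, and Col1a1 is highest on day 7, at 33.9 to 54.8 CPM.

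Related genes on day 3 are read against the 20.5% of all genes that changed and the 10.3% that were higher. Of 11 contractile genes 5 rose, among them Actg2, gamma smooth muscle actin (4.18 ± 1.27, adjusted p = 0.0285), Tagln (2.24 ± 0.46, adjusted p = 0.00361) and Myl9, a myosin light chain (1.88 ± 0.44, adjusted p = 0.00690), and 1 that fell, Mylk, named after its value was seen. Actg2 was near the floor, at 0.339, 0.977 and 2.83 CPM in LPS against 0, 0.218 and 0 CPM in NC. Its highest library was replicate 3, as for Acta2, with which it may share reads. Of 28 other matrix genes 11 rose, led by Thbs1, thrombospondin (3.02 ± 0.62, adjusted p = 0.00283), and Eln, elastin (1.96 ± 0.31, adjusted p = 0.000384). Of 17 processing genes 2 rose, including Loxl4, a Lox relative (2.74 ± 0.36, adjusted p = 0.000107), and 5 fell, including the prolyl hydroxylase subunit P4ha1, which fell by 1.2 (adjusted p = 0.00837). Of 26 signalling genes 4 rose, among them Tgfb1 (1.61 ± 0.18, adjusted p = 2.13e-05) and Pdgfb, a ligand of the PDGF receptor beta (1.23 ± 0.33, adjusted p = 0.0164), and 1 fell, Bmp10, named after its value was seen. Of 8 osteopontin receptor genes 5 rose, led by Cd44 (2.34 ± 0.31, adjusted p = 0.000102) and Itga4, an integrin subunit (1.84 ± 0.34, adjusted p = 0.00125), and Spp1 itself did not pass (0.66 ± 0.42, adjusted p = 0.298). Against NC of the nearest clock time, where 7.31% of genes changed, 2 of 28 matrix genes, 1 of 12 contractile, 2 of 17 processing, 2 of 26 signalling and 2 of 8 osteopontin receptor genes rose. Of 27 other stellate markers 0 rose and 1 fell there, with a median change of −0.19. Their counts against NC at ZT21 are not given here. Of 16 Kupffer cell and macrophage markers 13 rose, their sum at 788 to 956 CPM in LPS and 224 to 339 CPM in NC, and of 11 neutrophil markers 10 rose, at 27.0 to 34.6 CPM in LPS and 1.87 to 2.89 CPM in NC. Portal fibroblast markers summed to 20.3 to 56.6 CPM in LPS and 16.6 to 32.0 CPM in NC, with 3 of 14 risen. Against NC of the nearest clock time 10 of 16 macrophage, 8 of 11 neutrophil and 0 of 14 portal fibroblast markers rose. Their part in the values above was not tested.

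On day 5, 2 of 10 genes rose, where 11.6% of genes changed and 5.91% were higher; DESeq2 called 3, with Lox added. Acta2 was 6.03, 16.1 and 4.77 CPM in LPS livers against 2.2, 0.809 and 0.793 CPM in NC, and rose by 2.82 ± 0.80 (adjusted p = 0.0364). Pdgfrb, at 9.62, 9.62 and 11.0 CPM in LPS against 7.58, 7.88 and 6.12 CPM in NC, rose by 0.49 ± 0.15 (adjusted p = 0.0462). Neither gene's groups overlapped. Lox was 1.13, 0.912 and 0.663 CPM in LPS, above all 3 NC libraries, with a change of 1.89 ± 0.65 (adjusted p = 0.0695). The Pdgfrb call was lost when any 1 of the 6 libraries was left out, and the Acta2 call without LPS replicate 1 or 2 or NC replicate 2 or 3. Against NC at ZT1, the nearest clock time, 0 of 10 genes passed, where 3.12% of genes did.

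On day 7 at ZT21, fitted with the other days, 5 of 10 genes rose, where 9.42% of genes changed and 5.71% were higher. Col1a1 was 54.8, 33.9 and 46.4 CPM in LPS livers against 16.0, 9.99 and 6.5 CPM in NC, and rose by 2.06 (adjusted p = 0.00787). Every LPS library was above the highest NC library by a wide margin. Col3a1 rose by 1.69 (adjusted p = 0.00712), Col1a2 by 1.48 (adjusted p = 0.0146), Pdgfrb by 0.78 (adjusted p = 0.00918) and Spp1 by 1.75 (adjusted p = 0.0244). Leaving out single libraries kept the Col1a1 and Col3a1 calls in all 6 fits. Col1a2 was lost without LPS replicates 1 or 3 or NC replicate 2, Pdgfrb without LPS replicates 1 or 3, and Spp1 on leaving out any library except LPS replicate 2. Without the 4 libraries that stood apart, 1 LPS library remained at this time; edgeR then called 3 genes in all and no member, and Col1a1 was 1.65 ± 0.47 (adjusted p = 0.612). Against NC at ZT17, by a small margin the nearest clock time, 1 of 10 genes passed, where 8.86% of genes did: Pdgfrb at 0.78 ± 0.23 (adjusted p = 0.0308). Col1a1 was then 0.79 ± 0.60 (adjusted p = 0.438), Col1a2 0.64 ± 0.48 (adjusted p = 0.434), Col3a1 0.62 ± 0.54 (adjusted p = 0.506) and Spp1 0.74 ± 0.40 (adjusted p = 0.247). In the fit of day 7 alone, with 36 libraries and larger SEs, the collagens missed the threshold at ZT21 (Col1a1 2.07 ± 0.69, adjusted p = 0.0610). Of 28 other matrix genes 14 rose, including Col5a2 (1.65 ± 0.26, adjusted p = 0.00469) and Col6a3 (1.17 ± 0.20, adjusted p = 0.00712), and 1 fell, Col5a3, named after its value was seen; against NC at ZT17 3 of 28 rose, and without the 4 libraries 0 did. In the day 7 fit 18 of 20 proliferation genes rose at this time, and 0 of 20 without the 4 libraries, their sum at 95.6 to 674 CPM in LPS and 50.6 to 76.3 CPM in NC; markers of lipid-associated macrophages, cells also known to make Spp1, summed (without Spp1) to 448 to 1098 CPM in LPS and 394 to 448 CPM in NC. Of the defining markers of that macrophage list, Trem2 reached at most 2.08 CPM in any library, Gpnmb 3.58 CPM and Cd9 50.6 CPM. None of these highest values was in this group, and other members of the list make up most of the sum. Whether proliferation or macrophage genes moved the results was not tested.

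By days 9 and 11 edgeR called 0 of 10 genes, where 0.429% and 0.261% of genes changed; 3 and 1 members had an unadjusted p under 0.05, and DESeq2 called 0 on both days. Col1a1 was 17.8, 18.6 and 20.2 CPM on day 9 and 9.44, 7.43 and 9.75 CPM on day 11, against 16.0, 9.99 and 6.5 CPM in NC. The day 9 libraries all lay just above the NC range, and the day 11 libraries lay within it. Pdgfrb was 9.62, 9.24 and 10.4 CPM on day 9 and 9.75, 9.14 and 10.1 CPM on day 11, all above the highest NC library at 7.88 CPM. Its changes of 0.44 ± 0.15 (adjusted p = 0.282) and 0.43 ± 0.15 (adjusted p = 0.389) did not pass.

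The number of members with every LPS library above every NC library at ZT21 was 5 of 10 on day 3, where 20.7% of genes lay that way, 4 on day 5 (17.4% of genes), 5 on day 7 (12.7%), 5 on day 9 (9.74%) and 3 on day 11 (7.89%). Col3a1 and Acta2 were among the 5 on day 3, and Col1a1, Col1a2, Col3a1, Pdgfrb and Spp1 made up the 5 on days 7 and 9. All these counts use the same NC libraries. NC at ZT21 had the lowest mean of the 16 groups for Col1a2, Col3a1, Pdgfrb and Spp1, and ranked 15 of 16 for Col1a1. Spp1 was 33.4, 28.7 and 22.0 CPM on day 9 and 28.4, 25.7 and 33.7 CPM on day 11, against 17.3, 14.1 and 19.9 CPM in NC, with changes of 0.71 ± 0.42 (adjusted p = 0.626) and 0.78 ± 0.42 (adjusted p = 0.661) that did not pass. Mean Spp1 was 28.0 CPM on day 9 and 29.3 CPM on day 11. At the other times, NC means were 34.8 (ZT1), 29.8 (ZT5), 23.3 (ZT9), 32.4 (ZT13) and 34.2 CPM (ZT17).

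Across LPS days 3 to 11 at ZT21, 5 of 10 genes fell with day, where 20.5% of genes had a trend and 9.94% fell. Acta2 changed by −0.444 ± 0.0891 log2 per day (adjusted p = 0.00406), Lox by −0.335 ± 0.0730 (adjusted p = 0.00474), Timp1 by −0.458 ± 0.122 (adjusted p = 0.0151), Col1a1 by −0.134 ± 0.0394 (adjusted p = 0.0278) and Des by −0.0812 ± 0.0250 (adjusted p = 0.0306). Col1a1 did not fall steadily: its means were 26.0, 14.2, 45, 18.9 and 8.87 CPM on days 3, 5, 7, 9 and 11, highest on day 7. The Acta2 and Lox trends held in all 15 fits with 1 library left out. Col1a1 was lost without day 3 replicates 1 or 3 or any day 11 library, Des without day 3 replicate 3, day 5 replicate 2 or any day 11 library, and Timp1 without day 3 replicate 3 or day 11 replicate 3. If days are counted from the first dose, the trend joins livers under LPS with livers taken after it ended, and it cannot separate the periods. The nearest clock time above also differed along these days, and its part in the trends was not tested. Timp1 (chrX:20870166-20874735, plus strand) is the sparsest member, with 0 to 63 counts in a library: 18, 4 and 42 counts on day 3 and 4, 0 and 0 on day 11. A count of 0 allows a level of up to 0.106 CPM in the smallest of the 10 libraries at 0, on 3 counts, a limit that covers counting error only.

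Des (chr1:75360329-75368579, plus strand) and Lrat passed in no comparison with NC in the edgeR fits of all libraries of each set. Des was 4.72, 3.98 and 7.59 CPM on day 3 in LPS livers against 3.27, 3.39 and 3.96 CPM in NC, with a change of 0.61 ± 0.22 (adjusted p = 0.0625). DESeq2 called it (adjusted p = 0.0422), as did edgeR without LPS day 3 replicate 2 (adjusted p = 0.0280). All 3 LPS libraries lay above NC; the lowest at 3.98 CPM was just above the highest NC library at 3.96 CPM. Over the 16 groups Des means ran from 3.36 ± 0.28 CPM in LPS at ZT17 to 5.49 ± 2.98 CPM in LPS at ZT13, that mean set by replicate 2 at 8.91 CPM. Lrat was 7.71, 8.09 and 9.88 CPM on day 3, 16.9, 11.8 and 22.3 CPM on day 7 and 6.56, 5.45 and 12.9 CPM on day 9 in LPS livers, against 12.4, 8.65 and 13.5 CPM in NC at ZT21. The day 3 and day 9 libraries overlapped NC, and the changes of −0.44 ± 0.29 (adjusted p = 0.317) and −0.48 ± 0.29 (adjusted p = 0.637) did not pass. Its lowest group mean was 8.30 ± 4.01 CPM, on day 9, and its highest 17 ± 5.29 CPM, in LPS livers of day 7 at ZT21 (SD, n = 3 each). Of 18 other retinoid handling genes on day 3, 3 rose and 1 fell, a share near the 20.5% of all genes that changed, and against NC of the nearest clock time 0 rose and 1 fell. In the comparison at ZT21 the gene that fell was Cyp26b1: this enzyme, which breaks down retinoic acid, fell by 4.31 (adjusted p = 0.000787). In the annotation 5.86% of Des exon bases and 0.628% of Lox exon bases overlap genes on the other strand, and 1.44% of Col3a1 exon bases overlap Gm47302 on the same strand, so reads of those stretches cannot be assigned with certainty.

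Pdgfrb varied with time of day in NC livers. A 24 h cosine fitted to its 18 NC libraries passed the test (adjusted p = 0.00199), peaking at ZT7.4 with a 2.07-fold peak-to-trough ratio, where 22.5% of genes passed. NC libraries were 10.5, 12.7 and 12.6 CPM at ZT5 and 11.7, 18.3 and 14.8 CPM at ZT9, and 7.29, 7.39 and 6.97 CPM at ZT17 and 7.58, 7.88 and 6.12 CPM at ZT21. The ZT5 and ZT9 libraries were all above those of ZT17 and ZT21, and the call held in all 18 fits with 1 library left out. In LPS livers Pdgfrb did not pass (adjusted p = 0.353, 1.36-fold), where 16% of genes did, but a test of the difference in rhythm gave adjusted p = 0.349, where 0.169% passed. Without the 4 libraries Pdgfrb passed in LPS livers too (adjusted p = 0.0248), where 13.5% of genes did.

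Lox, at a lower level, did not pass edgeR's rhythm test in either arm. The fitted peak of Pdgfrb was at ZT4.8 in LPS livers and at ZT7.4 in NC livers. That of Lox was at ZT8.2 in LPS livers (4.14-fold, adjusted p = 0.0658) and at ZT6.0 in NC livers (3.04-fold, adjusted p = 0.151). Without the 4 libraries Lox passed in both, with adjusted p = 0.0478 in NC, and Des passed in LPS with adjusted p = 0.00494. In those fits 30.4% of genes passed in NC and 13.5% in LPS. With only LPS ZT13 replicate 2 left out, Lox passed in LPS livers with adjusted p = 0.00733. Lox rested on 2 to 176 counts per library, so single values are coarse. In LPS livers edgeR called 0 of 10 genes rhythmic, 1 had an unadjusted p under 0.05, and DESeq2 called 1, Lox.

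**Figure D4:**
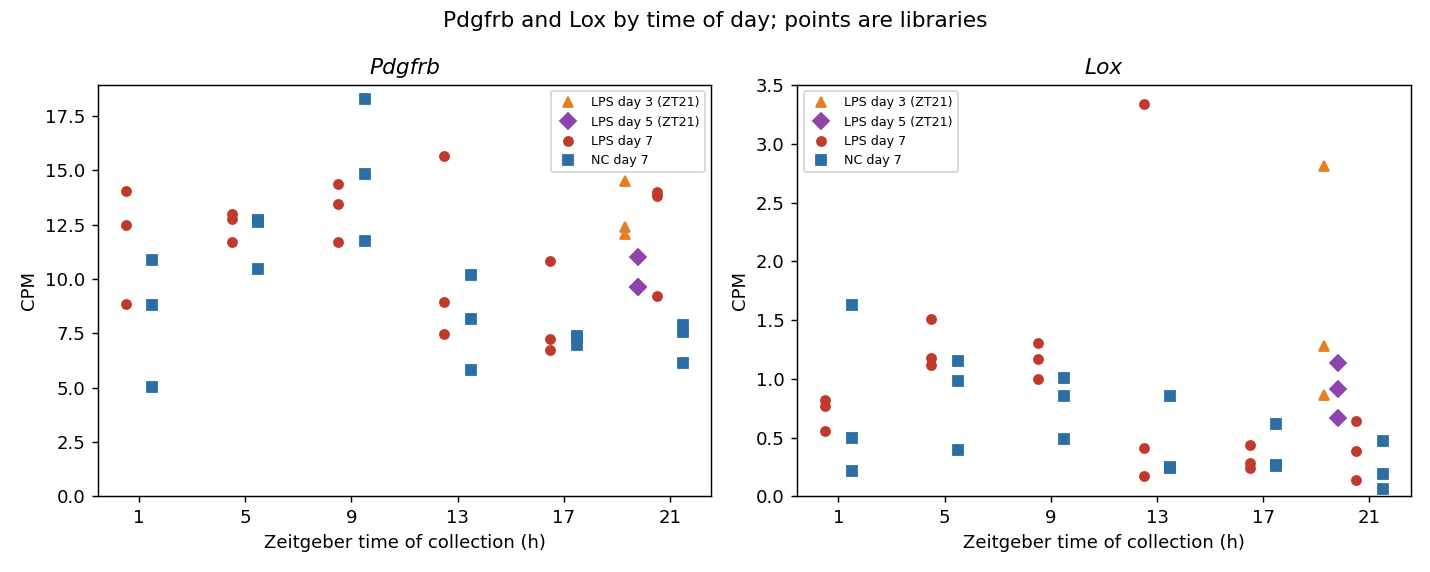
CPM of Pdgfrb (left) and Lox (right) is plotted against Zeitgeber time of collection in hours; red circles are LPS and blue squares NC libraries of day 7, orange triangles and purple diamonds LPS libraries of days 3 and 5, collected at ZT21 and drawn beside it. For Pdgfrb the day 3 libraries, at 12.1 to 14.5 CPM, lie among NC libraries of ZT5 and ZT9 and above those of ZT21.

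Over the 48 libraries the genes fell into different courses, given here as a description of libraries that share groups and depth. Des and Lox correlated at 0.74, and Lrat with the other members only between −0.19 and 0.05. Among 12624 other genes, those most like the mean of the 3 collagens were Col5a2 (r = 0.93, and 0.89 without the 4 libraries), Col6a2 (0.92) and Sparc (0.90). Acta2 was most like Myl9 (0.93) and Tagln (0.85), Lox most like Eln (0.76), and Pdgfrb most like Add1 (0.81). Lrat was most like Rarb (0.77), a retinoic acid receptor, and Cyp26a1 (0.71) and Cyp26b1 (0.71), enzymes that clear retinoic acid. Spp1 had its closest course with Epcam (0.63), an epithelial marker of bile ducts, and Cd63 (0.62).

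**Figure D5:**
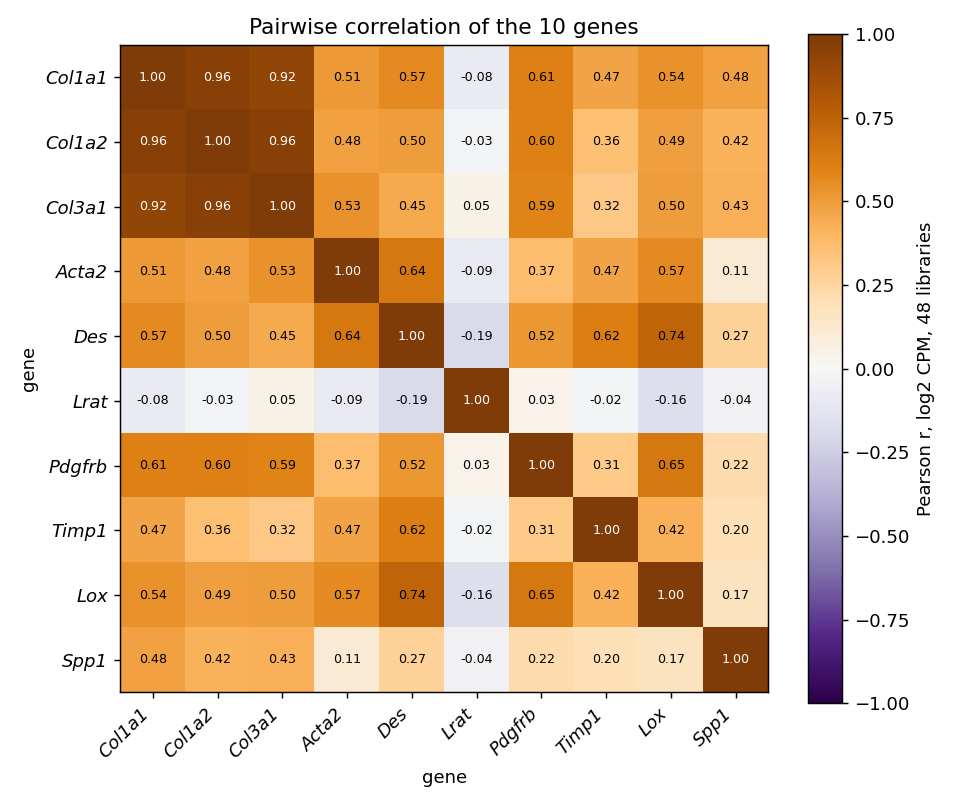
Cells give Pearson correlations of log2 CPM between each pair of the 10 genes over 48 libraries, from −1 (purple) to 1 (orange-brown), with genes on both axes. The 3 collagens form a block at 0.92 to 0.96, and the Lrat row stays between −0.19 and 0.05.

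The collagens were not in a fixed proportion. The ratio of Col3a1 to Col1a1 counts ran from 1.07 in LPS ZT1 replicate 2 to 4.41 in LPS day 11 replicate 1, with a median of 2.84. It was 4.24 ± 0.15 in LPS livers of day 11, the lowest at 4.13, and 3.03 ± 0.07 in NC livers at ZT21, the highest at 3.08 (SD, n = 3 each). On day 7 at ZT21 it was 2.34 ± 0.44 in LPS livers, with all libraries below those of NC. These ratios are a description, with no test.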

How the data were processed

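Messenger RNA of whole liver was sequenced in 48 strand-specific paired-end libraries, per the labels' protocols. Counts per gene were deposited by the authors without normalization. Per the submitters' processing notes, tools included StringTie 2.2.1, DESeq2 1.38.1, STAR 2.5.2b, FastQC 0.11.5 and SAMtools 1.3.1, on GRCm38; how reads were counted, and on which strand, is not given in the sources used here. The 10 genes, the lists and the tests were chosen with earlier results of these data known. Counts were fitted with edgeR 4.0.16 in R 4.3.3 (filterByExpr with a minimum count of 10, TMM factors, robust quasi-likelihood, Benjamini-Hochberg at 0.05) in 2 fits: the 36 day 7 libraries, and the 18 ZT21 libraries. Rhythm was a cosine of 24 h. On simulated counts the day 7 average recovered 86% of genes changed by a log2 of 1, and the day 3 comparison 56%. DESeq2 1.42.0 and limma-voom (limma 3.58.1) were alternatives, with other normalization, no filter, a replicate block, other sets of libraries, and each library left out. Replicates were compared first: the closest of 48 pairs had a median chi-square per gene of 1.43, against 0.455 from counting alone, so no pair was 1 library deposited again; this does not test whether libraries share an animal. All genes named as members are the 10; other genes are those with the largest changes in each list past the threshold, and the nearest in correlation. Clock genes were added after seeing the data. Per-kb levels and overlaps use GENCODE M21 exons on GRCm38. Figures used matplotlib 3.10.9.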

Additional observations from a re-analysis of the deposited data

How the results depend on the processing

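Counts below are of the 10 genes called by edgeR unless another tool is named. Percentages are shares of all genes called in the same fit, and counts without one have no share given here. No called direction turned under any alternative run. On the day 7 average, 1 was called, against 0 without the low-count filter and 5 with DESeq2. It was 5 with all 48 libraries in one fit (11.3% of genes), and 0 without the 4 libraries that stood apart (2.99%). With 1 library left out the count ran from 0 to 5. By time, 0 became 2 at ZT5 with only the 6 compared libraries (Col1a1, Col3a1). At ZT9 it became 1 with DESeq2, with the replicate block and without the 4 libraries (2.26% of genes). At ZT13 it became 1 with DESeq2 (0 to 1 with 1 library left out). At ZT21 in the day 7 fit, 1 became 5 with DESeq2 and with all 48 libraries (10.3% of genes). With only the 6 compared it became 0 (0 to 3 with 1 left out). For the interaction 0 became 1 with DESeq2 and with all 48 libraries (3.32% of genes), and ran from 0 to 1 with 1 left out. Rhythm calls were 1 in NC, and 2 without the 4 libraries, where 30.4% of genes were called. In LPS they were 0, 1 with DESeq2 and 1 with limma-voom (0 to 2 with 1 left out). Without the 4 libraries they were 3 in LPS, where 13.5% of genes were called. On day 3, 5 became 3 with all 48 libraries (19.3% of genes) and 3 with only 6. Against NC of the nearest clock time it became 0 (7.31% of genes), and it ran from 3 to 7 with 1 left out. On day 5, 2 became 0 without the filter, 1 with the replicate block, 0 with all 48, 1 with only 6 and 0 against the nearest clock time (0 to 1). On day 7 at ZT21 in the ZT21 fit, 5 became 0 without the 4 libraries, 0 with only 6 and 1 against the nearest clock time, ZT17 (2 to 5). The trend ran from 2 to 6 calls over 15 fits with 1 library left out. The causes were not tested, except that smaller sets leave fewer residual degrees of freedom by construction. Same-numbered LPS and NC libraries had deviations that correlated only between −0.074 and 0.090 over 30 pairs. Of these, 15 correlated best with their own number among 3 NC libraries, so these values do not settle whether replicate numbers pair libraries. The block moved no count beyond those above. Timp1 and Lox rest on few counts, which limits their precision.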
